A study of Mus musculus with 18 samples.

Results

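9 genes of the TNF receptor family and its signalling chain were followed in mouse CD4 T cells: the receptors Tnfrsf9, Tnfrsf4, Tnfrsf18, Tnfrsf1b, Tnfrsf25 and Cd27, the ligands Tnfsf8 and Tnfsf11, and the adaptor Traf1. They were chosen by name, with earlier results of these data known, as rows of the count tables whose Entrez identifier maps to these mouse symbols. All 9 of 9 were found among the 27179 genes listed, and all 9 were among the 11735 genes with enough counts to be tested. Their RNA was measured in 18 libraries, 3 for each of 6 groups, which cross a genotype label with a culture treatment. The genotype labels are CD4Cre- Maf fl/fl and CD4Cre+ Maf fl/fl. Every group thus carries the floxed Maf gene, which encodes the transcription factor c-Maf, and the groups differ by the CD4Cre transgene, which removes floxed sequence in T cells and already acts during their development in the thymus. Naive CD4 T cells were cultured for 3.5 days on plate-bound anti-CD3 and anti-CD28 under treatments labelled Tfh_A, Tfh_1 and Tfh_5, written TfhA, Tfh1 and Tfh5 in the sample titles and below. The composition of each treatment and the age of the mice were not given in the sources used here. Cells were sorted by flow cytometry, and libraries that read the 3′ end of polyadenylated RNA were made from 50 ng of RNA. Replicates are numbered 2, 4 and 5 under the Cre-negative label and 1, 3 and 6 under the Cre-positive label. No source says whether these were separate animals or cultures, so a p-value reflects only how far these samples spread, and that spread may be technical.

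TNF receptor family members are cell-surface proteins that trimeric TNF family ligands bring together. On T cells that have seen antigen they act beside CD28 as costimulators: their tails recruit TRAF adaptor proteins, which carry the signal to NF-κB and kinase pathways that favour survival, division and cytokine production. Cd27 is already present on naive T cells, whereas Tnfrsf9 (4-1BB), Tnfrsf4 (OX40) and Tnfrsf18 (GITR) are known for their induction after activation.

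The genotype labels were checked first on the floxed gene. Maf RNA ran against them in all 18 libraries, at 0 to 2.03 CPM (counts scaled by effective library size) in the 9 labelled Cre-negative and 5.03 to 397 CPM in the 9 labelled Cre-positive. Groups are named by their labels for this reason, and each comparison of genotypes is a comparison of labels that the Maf level contradicts. The floxed part of Maf was not given in the sources used here. Library totals ran from 6424874 to 9236153 counts. The share taken by the 2 most abundant identifiers, which have no name in the reference table, was 19.7% to 46.2%. In the TfhA libraries labelled Cre-negative it was 19.7% to 33.7%, and in the other 5 groups together 27.4% to 46.2%. The labelled cell type was checked on 7 CD4 T cell genes, all 7 of which were tested. Their summed level was 1510 to 1939 CPM in 4 groups and 2364 to 3020 CPM in Tfh1 and Tfh5 libraries labelled Cre-positive. The sum hides markers that moved apart. With the Cre-negative label Cd4 itself averaged 160 CPM in TfhA, 118 in Tfh1 and 57.4 in Tfh5, whereas Cd3d averaged 506 CPM in TfhA and 846 in Tfh5. CD8 T cell markers reached at most 7.84 CPM in sum over 2 genes, B cell markers 4.67 CPM over 4 and myeloid and dendritic cell markers 12.2 CPM over 7, with Lyz2, Adgre1 and Flt3 at 0 in all 18 libraries. The 3 NK cell markers summed to 7.98 to 52.8 CPM with Ncr1 at 0 throughout. The 3 regulatory T cell markers summed to 0.326 to 38.7 CPM, with Foxp3 at 0 in 14 of 18 libraries. With the Cre-negative label this sum was 19.4 to 28.3 CPM in TfhA and 3.28 to 16.1 CPM in Tfh5, without overlap. With the Cre-positive label the TfhA range (16.4 to 38.7 CPM) overlapped that of Tfh5, which reached 19.2 CPM. In Tfh1 the sum reached at most 11.5 CPM (Cre-negative) and 13.8 CPM (Cre-positive), below every TfhA library.

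6 of the 9 genes lie on chromosome 4 of the mouse build GRCm38.p6 (mm10). Tnfrsf4 (chr4:156013595-156016613) and Tnfrsf18 (chr4:156026322-156028894) are neighbours with 9708 bases between them. Tnfrsf9 lies at chr4:150920155-150946104, Tnfrsf25 at chr4:152115528-152120119, Tnfrsf1b at chr4:145212368-145246870 and Tnfsf8 at chr4:63831202-63861508. Cd27 lies at chr6:125232620-125237136, Tnfsf11 at chr14:78277446-78308043 and Traf1 at chr2:34941750-34961812. The first 16 bases of Tnfrsf4 overlap the end of Sdf4, a gene with 49707 counts over all libraries, and Tnfrsf18 and Cd27 lie within the long noncoding genes Gm16008 and E130112N10Rik, which had 48 and 49 counts. The sources used here do not give the strand setting of the counting, and without it reads of overlapping genes cannot be told apart.

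RefSeq promoter windows of this build, 250 bases before to 50 after an annotated start, were matched for all 9 genes (11 windows, since Tnfrsf9 and Tnfrsf25 have 2 each). They were searched on both strands for 4 motifs: the kappa B consensus bound by NF-κB, the AP-1 site TGANTCA, the STAT site TTCNNNGAA and the Maf half-site TGCTGA. The 250 bases before the start are printed 5′ to 3′ on the gene's strand for 3 genes, with motif matches in capitals. Tnfrsf9 is shown because it had the largest called change of the 9 genes and its second window holds matches to 3 of the motifs, Tnfrsf18 because its level followed that of Tnfrsf9 most closely, and Cd27 because it differed between the genotype labels.

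Tnfrsf9, second start (chr4:150927749-150927998, plus strand): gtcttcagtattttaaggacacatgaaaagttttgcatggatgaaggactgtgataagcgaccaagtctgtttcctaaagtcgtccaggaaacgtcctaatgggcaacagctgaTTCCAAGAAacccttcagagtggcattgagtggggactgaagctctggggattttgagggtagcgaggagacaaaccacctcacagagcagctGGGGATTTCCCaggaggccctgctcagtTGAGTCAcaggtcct

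Tnfrsf18 (chr4:156026072-156026321, plus strand): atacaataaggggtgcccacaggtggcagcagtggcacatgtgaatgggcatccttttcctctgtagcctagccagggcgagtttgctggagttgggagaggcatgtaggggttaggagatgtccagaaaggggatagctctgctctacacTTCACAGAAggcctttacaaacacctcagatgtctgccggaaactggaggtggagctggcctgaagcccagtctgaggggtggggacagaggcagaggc

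Cd27 (chr6:125237028-125237277, minus strand): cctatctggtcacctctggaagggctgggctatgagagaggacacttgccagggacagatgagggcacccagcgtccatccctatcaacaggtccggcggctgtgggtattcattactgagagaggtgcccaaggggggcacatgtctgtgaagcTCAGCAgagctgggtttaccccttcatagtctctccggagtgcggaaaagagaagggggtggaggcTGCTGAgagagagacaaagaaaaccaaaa

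In the second Tnfrsf9 window, 2 overlapping kappa B matches span bases -43 to -33 from the start, an AP-1 match (TGAGTCA) lies at -15 to -9 and a STAT match at -136 to -128. The first Tnfrsf9 window holds 1 Maf half-site and none of the other motifs. Tnfrsf18 has 1 STAT match at -99 to -91. Cd27 has 2 Maf half-sites, at -95 to -90 on the opposite strand and at -29 to -24. Over the 11 windows, kappa B matches occurred in 2 (Tnfrsf9 and the second Tnfrsf25 window), AP-1 in 1, STAT in 4 and the Maf half-site in 4. Among all 32851 windows of 300 bases in the RefSeq table the shares with a match were 8.46%, 7.81%, 8.30% and 19.5%. A match describes letters in a window and is not a measured binding site.

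Levels below are CPM, given for replicates in the order of their numbers. Fold changes are log2 values ± SE from edgeR's quasi-likelihood test on all 18 libraries, with p-values adjusted over the 11735 genes by the Benjamini-Hochberg method and called under 0.05. A lower level in bulk RNA can come from fewer cells expressing a gene or from less RNA per cell, and these cannot be told apart.

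**Figure D1:**
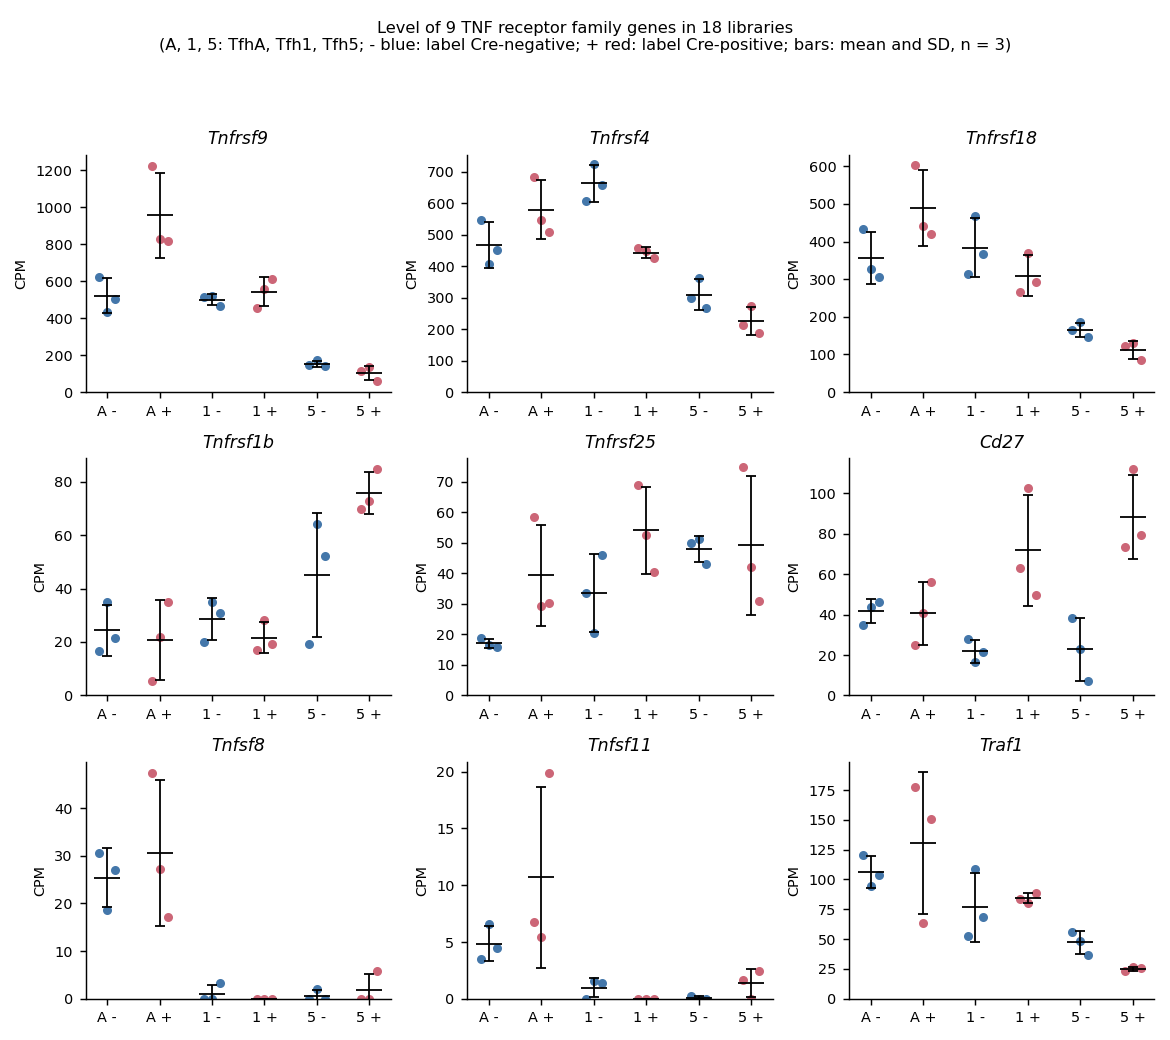
CPM (vertical axes, linear, from 0) of each of the 9 genes in the 18 libraries, by treatment (A, 1 and 5 for TfhA, Tfh1 and Tfh5) and genotype label (minus blue, plus red); points are libraries and bars are the mean and SD of 3. Tnfrsf9, Tnfrsf4, Tnfrsf18 and Traf1 are lowest in Tfh5, Tnfrsf1b is highest in Tfh5, Cd27 is highest in Tfh1 and Tfh5 labelled Cre-positive, and Tnfsf8 and Tnfsf11 are highest in TfhA.

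3 inducible costimulatory receptors were lower in Tfh5 than in the other treatments. Tnfrsf9 fell by 1.76 on the log2 scale against TfhA in libraries labelled Cre-negative and by 3.20 in those labelled Cre-positive, which is from a mean of 956 to 104 CPM. Tnfrsf18 fell beside it under both labels, and Tnfrsf4 was lower in all 4 comparisons with Tfh5 and called in 3 of the 4. Within each label, the Tfh5 libraries of these 3 genes lay below every TfhA and Tfh1 library.

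Tnfrsf9 encodes 4-1BB, a receptor that T cells put up after activation and that recruits TRAF adaptors. With the Cre-negative label it measured 624, 436 and 505 CPM in TfhA, 514, 519 and 466 in Tfh1 and 147, 173 and 142 in Tfh5. With the Cre-positive label it measured 1224, 828 and 815 CPM in TfhA, 456, 558 and 612 in Tfh1 and 112, 138 and 60.4 in Tfh5. The TfhA libraries labelled Cre-positive were thus the highest and did not overlap any other group, and both Tfh5 groups were the lowest and did not overlap each other. Group means were 522 CPM ± 95.5, 500 ± 29.1 and 154 ± 16.6 (SD, n = 3) with the Cre-negative label, in the order TfhA, Tfh1, Tfh5. They were 956 ± 232, 542 ± 79.2 and 104 ± 39.7 with the Cre-positive label. The ranges of the Tfh1 group labelled Cre-positive and the TfhA group labelled Cre-negative overlapped, as did those of the latter and the Tfh1 group with its label.

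Against TfhA, Tnfrsf9 in Tfh5 changed by -1.76 ± 0.23 with the Cre-negative label (edgeR adjusted p = 1.18e-06) and by -3.20 ± 0.24 with the Cre-positive label (adjusted p = 6.13e-12). Against Tfh1 it changed by -1.70 ± 0.23 (adjusted p = 3.79e-05) and -2.39 ± 0.23 (adjusted p = 1.34e-08). In each comparison all 3 Tfh5 libraries lay below every library of the treatment compared. These 4 calls held under every alternative run. Tfh1 differed from TfhA by less: Tnfrsf9 fell by 0.82 ± 0.22 with the Cre-positive label (adjusted p = 0.0336), a call lost without TfhA replicate 1 (adjusted p = 0.239) or Tfh1 replicate 1, 3 or 6 (0.191, 0.0804 and 0.0552), and was not called with the Cre-negative label (adjusted p = 0.9996).

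**Figure D2:**
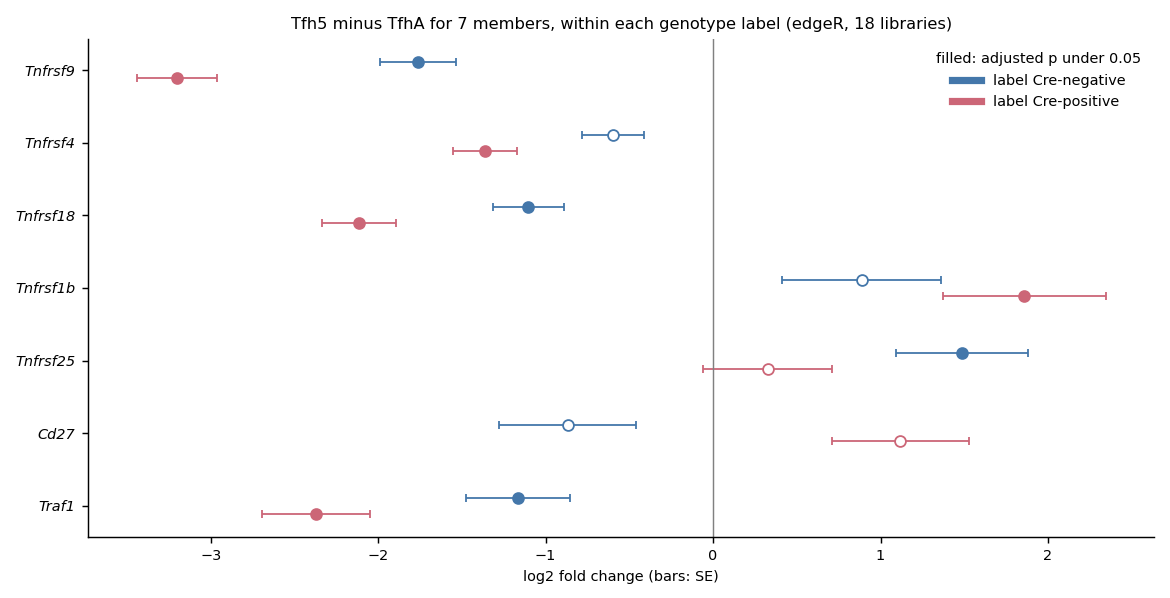
Log2 fold change of Tfh5 minus TfhA (horizontal axis, bars are SE) for the 7 members other than the ligands, in libraries labelled Cre-negative (blue) and Cre-positive (red); filled points passed an adjusted p of 0.05. Tnfrsf9 stands farthest to the left at -1.76 and -3.20, Tnfrsf1b and Tnfrsf25 lie to the right, and Cd27 lies on opposite sides under the 2 labels with neither value called.

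Tnfrsf18 encodes GITR, another receptor induced on activated T cells and constitutively high on regulatory T cells. Its libraries labelled Cre-negative measured 434, 328 and 305 CPM in TfhA, 314, 469 and 367 in Tfh1 and 164, 185 and 148 in Tfh5. Those labelled Cre-positive measured 604, 441 and 419 CPM in TfhA, 265, 369 and 293 in Tfh1 and 123, 130 and 85.7 in Tfh5. The 6 Tfh5 libraries were the lowest of the 18, and the TfhA and Tfh1 groups overlapped with the Cre-negative label. Tfh5 minus TfhA was -1.10 ± 0.21 with the Cre-negative label (edgeR adjusted p = 0.000778) and -2.11 ± 0.22 with the Cre-positive label (adjusted p = 1.06e-08). Tfh5 minus Tfh1 was -1.21 ± 0.21 (adjusted p = 0.00187) and -1.45 ± 0.22 (adjusted p = 4.70e-05). Tfh1 minus TfhA with the Cre-positive label was -0.66 ± 0.21 and not called (adjusted p = 0.0945), whereas DESeq2 (0.0348) and plain library size (0.0271) called it. The 3 regulatory T cell markers summed to 16.4 to 38.7 CPM in the 6 TfhA libraries and 3.28 to 19.2 CPM in the 6 Tfh5 libraries. With the Cre-negative label every TfhA library lay above every Tfh5 library in this sum, and with the Cre-positive label these treatments overlapped. Of these markers 2 were tested, 0 were called in any comparison, and their part in these changes was not tested.

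Tnfrsf4 encodes OX40, which sustains effector and memory CD4 T cells. In libraries labelled Cre-negative it measured 547, 406 and 450 CPM in TfhA, 608, 726 and 657 in Tfh1 and 298, 363 and 267 in Tfh5. In those labelled Cre-positive it measured 684, 548 and 507 CPM in TfhA, 457, 448 and 425 in Tfh1 and 213, 275 and 189 in Tfh5. Its highest group was Tfh1 labelled Cre-negative (664 CPM ± 59.1, SD, n = 3), unlike Tnfrsf9 and Tnfrsf18, whose highest group was TfhA labelled Cre-positive, although for Tnfrsf4 the ranges of these 2 groups overlapped. The Tfh5 libraries lay below all others of their label. Tnfrsf4 fell from TfhA to Tfh5 by 1.36 ± 0.19 with the Cre-positive label (edgeR adjusted p = 3.81e-06). With the Cre-negative label the change was -0.60 ± 0.19 and just missed the threshold (adjusted p = 0.0548). DESeq2 (0.0141), plain library size (9.97e-05) and the fit without Tfh5 replicate 4 (0.0360) put that comparison under it. From Tfh1 to Tfh5 it fell by 1.10 ± 0.19 (adjusted p = 0.00107) and 0.98 ± 0.19 (adjusted p = 0.00193) under the 2 labels. The neighbouring gene Sdf4, named here after its values were seen, moved with it: Tfh5 minus TfhA with the Cre-positive label was -1.39 ± 0.21 for Sdf4 (adjusted p = 1.95e-05). Its part in the counts of Tnfrsf4 was not tested.

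Traf1 encodes an adaptor that joins the receptor tails through TRAF2 and is itself known as a target of NF-κB. Traf1 measured 121, 94.3 and 104 CPM in TfhA, 53.0, 109 and 68.2 in Tfh1 and 56.3, 48.7 and 37.0 in Tfh5 with the Cre-negative label. The libraries labelled Cre-positive measured 178, 63.9 and 151 CPM in TfhA, 83.6, 80.5 and 88.9 in Tfh1 and 23.4, 26.2 and 26.0 in Tfh5. The Tfh5 group labelled Cre-positive was the lowest, and TfhA replicate 3 of that label lay below its Tfh1 libraries. Traf1 fell from TfhA to Tfh5 by 2.37 ± 0.32 with the Cre-positive label (edgeR adjusted p = 2.34e-06) and by 1.16 ± 0.31 with the Cre-negative label (adjusted p = 0.0175). The second call was lost without TfhA replicate 2 or 5 (adjusted p = 0.0804 and 0.0545) or Tfh5 replicate 5 (0.107). From Tfh1 to Tfh5 it fell by 1.74 ± 0.32 with the Cre-positive label (adjusted p = 0.000991). The same comparison with the Cre-negative label was not called (adjusted p = 0.423), and its groups overlapped.

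2 receptors of the family were called higher in Tfh5, Tnfrsf1b with the Cre-positive and Tnfrsf25 with the Cre-negative label. The change from TfhA to Tfh5 is not shown to differ between the labels for either (adjusted p = 0.670 and 0.425 in edgeR's test of the difference). Tnfrsf1b encodes TNFR2, the receptor through which TNF costimulates T cells. It measured 16.5, 34.9 and 21.6 CPM in TfhA, 20.0, 35.0 and 30.8 in Tfh1 and 19.2, 64 and 52.0 in Tfh5 with the Cre-negative label. Under the Cre-positive label it measured 5.30, 21.9 and 35.1 CPM in TfhA, 17.2, 28.2 and 19.4 in Tfh1 and 69.8, 72.7 and 84.7 in Tfh5. The 3 Tfh5 libraries labelled Cre-positive lay above all 15 others, whereas Tfh5 replicate 2 of the other label lay within the TfhA range. Tnfrsf1b rose in Tfh5 labelled Cre-positive by 1.86 ± 0.49 against TfhA (edgeR adjusted p = 0.0146) and by 1.81 ± 0.49 against Tfh1 (adjusted p = 0.0425). The first call was lost without TfhA replicate 1 or 3 (adjusted p = 0.0946 and 0.0537), and the second without any 1 of its 6 libraries (0.0637 to 0.182). Plain library size also ended both (0.0626 and 0.0649), and the fit on the compared groups alone ended the first (0.0577). Neither comparison was called with the Cre-negative label (adjusted p = 0.365 and 0.689).

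Tnfrsf25 encodes DR3, the receptor for the cytokine TL1A. In TfhA labelled Cre-negative it measured 18.8, 16.7 and 16.0 CPM, below all 15 other libraries, which ranged from 20.5 to 74.6 CPM. Tfh5 of that label measured 49.8, 51.2 and 43.0 CPM, a rise of 1.49 ± 0.40 over TfhA (edgeR adjusted p = 0.0179). It was lost without TfhA replicate 4 or 5 (adjusted p = 0.0651 and 0.0863) and with plain library size, where it was 0.94 ± 0.40 (adjusted p = 0.157). Tfh5 minus Tfh1 of that label, at 0.52 ± 0.39, was not called (adjusted p = 0.706). With the Cre-positive label the means were 39.3 CPM ± 16.4 in TfhA, 54.0 ± 14.3 in Tfh1 and 49.2 ± 22.7 in Tfh5 (SD, n = 3), the ranges overlapped and no comparison was called (adjusted p from 0.699 to 0.980).

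These counts can be read against the whole table. In Tfh5 minus TfhA with the Cre-negative label, 4 of 9 genes were called (1 higher, 3 lower) where 5.08% of all tested genes were called, and the median log2 fold change was -1.10 over the 9 and -0.09 over all. With the Cre-positive label 5 of 9 were called (1 higher, 4 lower) against 5.39%, with medians of -2.11 and -0.05. In Tfh5 minus Tfh1, 3 of 9 were called with the Cre-negative label, all lower, against 0.554% of all genes, and 5 of 9 with the Cre-positive label (1 higher, 4 lower) against 1.76%. In Tfh1 minus TfhA no member was called with the Cre-negative label against 2.23% of all genes, although 4 had an unadjusted p under 0.05, and DESeq2 called 0. With the Cre-positive label 1 of 9 was called, Tnfrsf9, against 2.57%. The comparisons within a label share libraries and are not independent of each other. The 9 genes were chosen with earlier results of these data known. Their shares beside those of all genes thus describe these 9 and do not test the family.

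Between the genotype labels, Cd27 was the member called by edgeR on all 18 libraries. Cd27 encodes a costimulator of naive and early memory T cells, which is lost on terminal differentiation. With the Cre-negative label it measured 35.1, 43.8 and 46.5 CPM in TfhA, 27.9, 16.6 and 21.3 in Tfh1 and 38.1, 23.1 and 7.19 in Tfh5. With the Cre-positive label it measured 24.8, 40.8 and 56.0 CPM in TfhA, 63.3, 103 and 49.5 in Tfh1 and 73.4, 112 and 79.4 in Tfh5. The labels overlapped in TfhA and did not overlap in Tfh1 or Tfh5. Cd27 was higher with the Cre-positive label by 1.71 ± 0.42 in Tfh1 (edgeR adjusted p = 0.0333) and by 1.95 ± 0.42 in Tfh5 (adjusted p = 0.00447), in 3 of 3 libraries each.

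The Tfh5 difference of Cd27 was kept without any 1 of its 6 libraries and lost when only the 2 groups compared were fitted (1.96 ± 0.50, adjusted p = 0.103). The Tfh1 difference was lost without replicate 2, 4 or 5 labelled Cre-negative (adjusted p = 0.0595, 0.186 and 0.168), without replicate 1 or 3 labelled Cre-positive (0.0602 and 0.195) and with plain library size (0.113). In TfhA the difference was -0.04 ± 0.41 and not called (adjusted p = 1). The change of the label difference from TfhA to Tfh5 was 1.99 ± 0.58 and also not called (adjusted p = 0.0946), so the label difference is not shown to depend on the treatment. DESeq2 (0.0458), the fit with no filter on low counts (0.0174) and the fit without Tfh5 replicate 2 labelled Cre-negative (0.0125) called it. The summed CD4 T cell markers were higher in the same 2 groups, 2675 to 3020 CPM in Tfh1 and 2364 to 2731 CPM in Tfh5 labelled Cre-positive against 1525 to 1831 and 1608 to 1829 CPM with the other label, and their part in the Cd27 difference was not tested. Maf RNA averaged 221 CPM ± 34.3 and 349 ± 42.0 (SD, n = 3) in the same 2 groups.

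**Figure D3:**
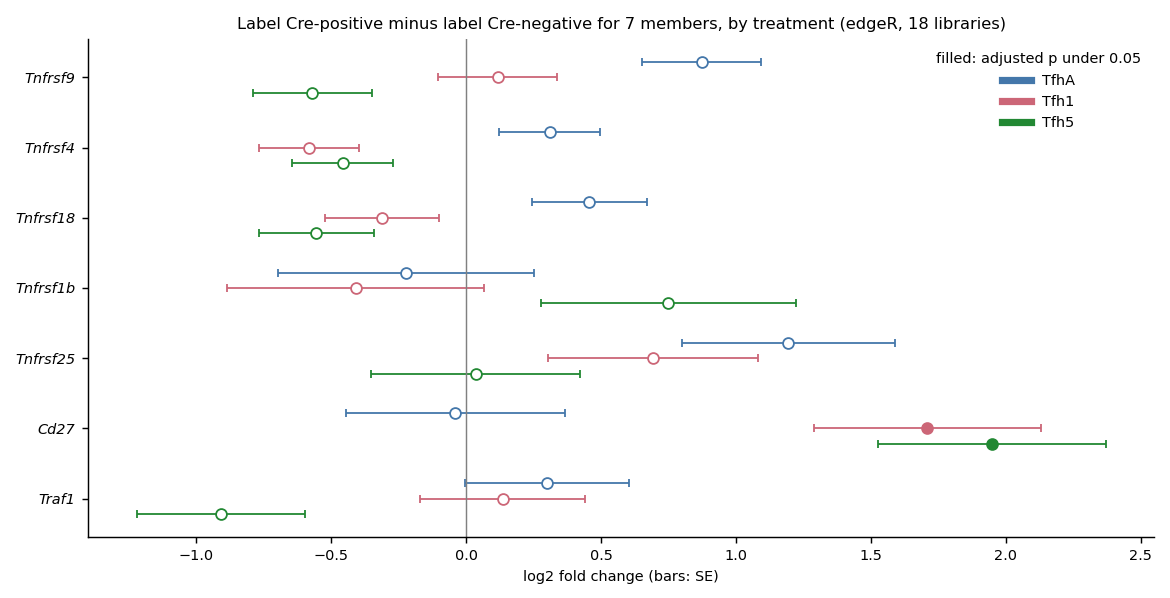
Log2 difference between libraries labelled Cre-positive and Cre-negative (horizontal axis, bars are SE) in TfhA (blue), Tfh1 (red) and Tfh5 (green) for the 7 members other than the ligands; filled points passed an adjusted p of 0.05. Only the Cd27 values in Tfh1 (1.71) and Tfh5 (1.95) are filled, and Tnfrsf9 runs from 0.87 in TfhA to -0.57 in Tfh5.

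Tnfrsf9 was the member for which the treatment change itself differed between the labels. It was 0.87 ± 0.22 higher with the Cre-positive label in TfhA (edgeR adjusted p = 0.229) and 0.57 ± 0.22 lower in Tfh5 (adjusted p = 0.195), neither of which was called, and in both treatments the 3 libraries of each label did not overlap. The difference of these differences was -1.44 ± 0.31 (adjusted p = 0.00990). It was lost without TfhA replicate 1 labelled Cre-positive (-1.22 ± 0.32, adjusted p = 0.0575), with plain library size (-0.98 ± 0.29, adjusted p = 0.107) and when the Tfh1 libraries were left out of the fit (adjusted p = 0.0515). Tnfrsf18 (-1.01, adjusted p = 0.104), Traf1 (-1.21, adjusted p = 0.216) and Tnfrsf4 (-0.77, adjusted p = 0.188) had values of the same sign that did not pass. DESeq2 called Tnfrsf9, Tnfrsf18, Tnfrsf4 and Cd27 in this comparison.

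The background of the label comparisons was small. In TfhA 0% of the 11735 genes and none of the 9 were called by edgeR. At an unadjusted p under 0.05 there were 606 genes and 3 members (Tnfrsf9, Tnfrsf18 and Tnfrsf25), and DESeq2 called 23 genes and 1 member, Tnfrsf9 (adjusted p = 0.0411). With no filter edgeR called Tnfrsf9 there as well (0.0367). In Tfh1 1 of 9 was called, against 0.852% of all genes, and DESeq2 and the fit on the compared groups alone added Tnfrsf4 (0.0464 and 0.0429). In Tfh5 1 of 9 was called, against 3.24%, and Tnfrsf9 as well without replicate 3 labelled Cre-positive (0.0425). The change of the label difference between treatments called 1 of 9 members from TfhA to Tfh5, against 1.19% of genes. From TfhA to Tfh1 edgeR called none, against 0.239% of genes, with 5 members at an unadjusted p under 0.05 and 1 called by DESeq2 (Tnfrsf4, adjusted p = 0.0494). From Tfh1 to Tfh5 it called none, against 0.0597%, with 4 members at an unadjusted p under 0.05 and 0 called by DESeq2.

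Both ligands had most of their counts in TfhA. Tnfsf8 encodes the CD30 ligand. It measured 30.6, 18.6 and 27.0 CPM in TfhA labelled Cre-negative and 47.3, 27.2 and 17.1 CPM in TfhA labelled Cre-positive. Of the 12 Tfh1 and Tfh5 libraries, 9 held 0 counts, and the other 3 held 24, 14 and 45 counts, at most 5.81 CPM. Every TfhA library was thus above every library of the other treatments. In Tfh1 labelled Cre-positive it was at least 193-fold lower than in TfhA, 0 against 672 counts over the 3 libraries with a floor of 3 counts for the group. That bound allows for counting error in the group at 0 and not for the spread between libraries. No comparison of Tnfsf8 passed edgeR's test on all 18 libraries after the filter on low counts (adjusted p = 0.0617 for that one and 0.188 to 0.340 for the other 3 with TfhA). With no filter, all 4 passed (adjusted p from 1.06e-08 to 0.00496), and DESeq2 called the first (adjusted p = 0.0196). The fit with no filter also called comparisons in which 1 library held all the counts. These were Tfh5 minus Tfh1 labelled Cre-positive (45 against 0, adjusted p = 0.00246) and the label difference in Tfh1 (0 against 24, 0.0259). The change of the label difference from Tfh1 to Tfh5 passed there too (0.0386). Fitted on the compared groups alone with the filter, Tfh1 minus TfhA labelled Cre-positive passed (adjusted p = 0.000366), as did Tfh1 and Tfh5 against TfhA with the Cre-negative label (0.0186 and 0.0285). Without Tfh5 replicate 6 labelled Cre-positive, which held all 45 counts of its group, Tfh5 minus TfhA of that label passed as well (adjusted p = 0.0142).

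Tnfsf11 encodes RANKL, the ligand that T cells and bone-forming cells use to drive osteoclasts and dendritic cell survival. It measured 3.51, 6.54 and 4.50 CPM in TfhA labelled Cre-negative and 6.76, 5.45 and 19.9 CPM in TfhA labelled Cre-positive. The 12 other libraries held 0 to 19 counts, at most 2.45 CPM, and 7 of them held 0. In Tfh1 labelled Cre-positive it was at least 74-fold lower than in TfhA (0 against 257 counts), a bound that likewise leaves out the spread between libraries. In Tfh5 labelled Cre-negative it was 51.4-fold lower, 2 against 135 counts, with a 95% counting interval of 14 to 429 that covers counting error only. Neither passed edgeR's test on all 18 libraries after the filter (adjusted p = 0.0580 for the first and 0.195 for the second), and DESeq2 called both (0.000309 and 0.0220). The first also passed edgeR's test with no filter (0.0379), with plain library size (0.0495) and on the compared groups alone (0.0364).

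The binding partners of these proteins were mostly scarce in the same cells. Tnfsf9, Tnfsf4, Tnfsf15 and Tnfsf18, the ligands of the Tnfrsf9, Tnfrsf4, Tnfrsf25 and Tnfrsf18 products, held 39, 43, 18 and 0 counts over all 18 libraries and were too low to test. Tnfrsf11a, the receptor for RANKL, held 0 counts, and Tnfrsf8, the receptor for the CD30 ligand, 124 counts in 3 libraries. Cd70, the ligand of CD27, held 157 counts in 6 libraries, 156 of them in TfhA. Tnf and Lta, whose products bind TNFR2, were above 0 in all 18 libraries, with group means of 12.1 to 23.4 CPM for Tnf and 19.6 to 71.6 CPM for Lta. These partners were chosen as the known ligands and receptors of the 9, after the levels of the 9 had been seen.

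5 lists held 73 further genes of the pathway, of which 57 were tested, and between 0 and 5 of the 57 were called in any of the 12 comparisons. With the Cre-positive label these were 8.77% in Tfh5 minus TfhA, 5.26% in Tfh1 minus TfhA and 3.51% in Tfh5 minus Tfh1, against 5.39%, 2.57% and 1.76% of all tested genes. With the Cre-negative label they were 0%, 1.75% and 1.75% in the same order, against 5.08%, 2.23% and 0.554%. The label difference in Tfh5 gave 3.51% against 3.24%. In TfhA and Tfh1 it gave 0%, against 0% and 0.852%. Each change of the label difference between treatments also gave 0%. The lists too were chosen with earlier results of these data known. Among 21 other receptors of the family, 11 of them tested, 1 was called: Tnfrsf26 rose from 16.0 to 53.2 CPM in Tfh5 against TfhA labelled Cre-positive (1.73 ± 0.51, edgeR adjusted p = 0.0342). In the 11 other comparisons 0 to 2 had an unadjusted p under 0.05 and DESeq2 called 0. Among 15 other ligands, 9 of them tested, Lta, which encodes lymphotoxin-α, fell with the Cre-positive label from 71.6 CPM ± 19.0 in TfhA to 20.8 ± 11.2 in Tfh1 (-1.78 ± 0.43, adjusted p = 0.0123) and 19.6 ± 12.1 in Tfh5 (-1.86 ± 0.43, adjusted p = 0.00455). In Tfh5 Lta was 1.87 ± 0.43 lower with the Cre-positive than with the Cre-negative label (adjusted p = 0.00728). The median change of the 9 ligands in Tfh5 minus TfhA labelled Cre-positive was -1.86, the value of Lta itself, against -0.05 over all genes. In the 9 comparisons with no ligand called by edgeR, 0 to 3 had an unadjusted p under 0.05, and DESeq2 called 1 or 2 in 4 of them.

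None of the 15 TRAF adaptors and partners on the list, all tested, was called in any of the 12 comparisons by edgeR or DESeq2, and at most 1 per comparison had an unadjusted p under 0.05. Traf2, the partner of Traf1, averaged 4.25 to 10.6 CPM over the 6 groups. The 8 NF-κB subunits and kinases likewise had 0 calls by both tools and at most 1 at an unadjusted p under 0.05. Their median changes in Tfh5 minus TfhA were -0.19 and -0.34 with the Cre-positive label, for the adaptors and the subunits in that order.

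Of 14 NF-κB inhibitors and targets, all tested, 2 to 3 were called in each comparison of treatments with the Cre-positive label and 0 to 1 with the Cre-negative label. Of all tested genes, 1.76% to 5.39% were called in the former comparisons and 0.554% to 5.08% in the latter. In each change of the label difference between treatments edgeR called 0 of the 14, so a dependence on the label is not shown. In the 6 comparisons of all 12 with 0 called, 0 to 1 had an unadjusted p under 0.05, and DESeq2 called 1 in 2 of them. Nfkbia, the inhibitor that holds NF-κB in the cytoplasm, fell in Tfh1 against TfhA under both labels, from 466 to 280 CPM (-0.74 ± 0.19, edgeR adjusted p = 0.0275) and from 414 to 238 CPM (-0.80 ± 0.19, adjusted p = 0.0126). Tnfaip8, a TNF-induced regulator of apoptosis, fell with the Cre-positive label from 122 CPM in TfhA to 42.6 in Tfh1 and 40.2 in Tfh5 (-1.52 ± 0.29 and -1.60 ± 0.29, adjusted p = 0.00134 and 0.000297). It was also 1.03 ± 0.29 lower with the Cre-positive label in Tfh5 (adjusted p = 0.0382). The antiapoptotic genes Bcl2a1b and Bcl2a1d rose in Tfh5 against Tfh1 labelled Cre-positive by 1.26 ± 0.29 and 1.31 ± 0.31 (adjusted p = 0.0116 and 0.0164), and Bcl2a1d also with the Cre-negative label (1.34 ± 0.32, adjusted p = 0.0361). Bcl2a1d rose in Tfh5 against TfhA labelled Cre-positive by 1.37 ± 0.31 (adjusted p = 0.00457). These are near-identical copies between which reads may be split, so the values of each are uncertain. The list thus held genes that rose beside genes that fell, and its median in Tfh5 minus TfhA labelled Cre-positive was -0.15.

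**Figure D4:**
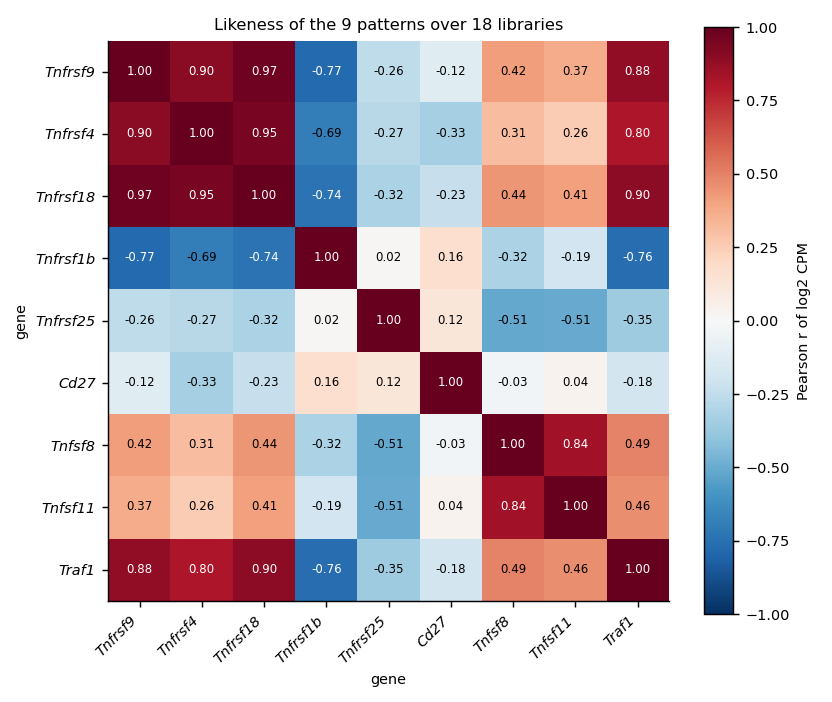
Pearson r of log2 CPM over the 18 libraries for each pair of the 9 genes (both axes; colour from blue at -1 to red at 1, with each value printed). Tnfrsf9, Tnfrsf4, Tnfrsf18 and Traf1 form a block with r of 0.80 to 0.97, Tnfsf8 and Tnfsf11 pair at 0.84, and Tnfrsf1b is negative to the block.

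Over the 18 libraries the 9 genes fell into patterns of unequal likeness, given as Pearson r of log2 CPM with no test, since the libraries share groups and treatments. Tnfrsf9 and Tnfrsf18 were closest (r = 0.97), followed by Tnfrsf4 with Tnfrsf18 (0.95) and Tnfrsf9 with Tnfrsf4 (0.90). Traf1 followed them at 0.80 to 0.90. Tnfrsf1b ran opposite to these 4, at -0.69 to -0.77, and Cd27 and Tnfrsf25 were at -0.12 to -0.35 with them. The 2 ligands followed each other (0.84).

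Of the other 11726 tested genes, only those with a name in the reference table were ranked by their likeness to each member. Those most like Tnfrsf9 were Tg (0.97), Serpinf1 (0.95) and Sdf4 (0.91), and those most like Tnfrsf18 were the same 3 at 0.96, 0.91 and 0.92. Tnfrsf4 was most like Sdf4 (0.91), Cisd3 (0.89) and Ier3 (0.88), and Traf1 most like Ly6a (0.90), Tg (0.89) and Serpinb5 (0.88). Cd27 was most like Tcp11l2 (0.92), Itm2a (0.87) and Pou2af1 (0.86). For Tnfrsf1b they were Epb41l2 (0.85), Xrcc5 (0.84) and Spsb1 (0.82), and for Tnfrsf25 Gm8213, Urm1 and Gm2614 (each 0.82). Tnfsf8 was most like Btbd11 (0.91), Prag1 (0.90) and the cytokine gene Il3 (0.89), and Tnfsf11 most like 1500009L16Rik (0.88), Prag1 (0.88) and Gzmb, which encodes granzyme B (0.87).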

How the data were processed

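RNA of 18 libraries was analysed. Per the submitters' processing notes, the authors used STAR 2.7.2b, featureCounts 1.6.4 and the build mm10. The files deposited by the authors hold an estimated count per Entrez gene, with no normalization; 11.7% to 18.1% of the values per library are not whole, so some reads were counted in parts, and the rule was not given in the sources used here. Values were rounded to whole numbers, since the design had assumed whole counts. Of 27179 genes, 25275 were named through a RefSeq table of GRCm38.p6, and 1904 have no name there. No 2 libraries were identical.

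The main test was edgeR 4.0.16 (R 4.3.3): filterByExpr, TMM (factors 0.830 to 1.39), 1 mean per group, robust quasi-likelihood fit, common biological coefficient of variation 0.814. CPM are rounded counts over the effective library size. The SE was worked back from the F statistic. The code was tested on simulated data. Correlations used log2 CPM with a prior count of 2.

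The members and lists were chosen with earlier results of these data known. Named genes are the 9 members, up to 2 called genes per list and comparison, Maf and the 3 genes most like each member. The partner genes were added later. Alternatives were DESeq2 1.42.0, other scaling, no filter, the compared groups alone, a replicate block and each library left out. Plain library size and the fit without the 2 most abundant identifiers were chosen after seeing the data.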

Additional observations from a re-analysis of the deposited data

Results flagged for a closer look

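The change of Tnfrsf9 from TfhA to Tfh5 differed between the genotype labels by -1.44 on the log2 scale in edgeR's quasi-likelihood test of the difference itself (adjusted p = 0.00990). In TfhA the 3 libraries labelled Cre-positive lay above the 3 labelled Cre-negative. In Tfh5 the order was the reverse, with the nearest libraries at 138 and 142 CPM. TfhA replicate 1 labelled Cre-positive, at 1224 CPM, is the library without which the call was lost. It had the highest share of counts in the 2 most abundant identifiers (46.2%) and the lowest TMM factor (0.830) of the 18 libraries. That share was 19.7% to 33.7% in TfhA labelled Cre-negative and 27.4% to 46.2% with the other label, so the ranges overlapped. With both identifiers left out of the counts the difference was -1.44 (edgeR adjusted p = 0.0105), and TMM scaling was kept in that fit. With plain library size the call was lost (-0.98, adjusted p = 0.107), as it was when the Tfh1 libraries were left out of the fit. The part of these shares in the difference was not tested.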

How the results depend on the processing

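The 21 called fold changes of members gave 277 values under the alternatives, of which 246 kept the call, 31 lost it and 0 changed sign; 13 of the 21 lost it nowhere. Of 54 group levels under 2 other scalings, 96 values moved by less than 1 SD and 12 by more, all 12 with plain library size. Most of the 12 were in TfhA labelled Cre-negative, where every member except Tnfrsf1b moved to a higher level, Tnfrsf9 from 522 to 673 CPM. The rest were in Tfh5 labelled Cre-negative and Tfh1 labelled Cre-positive and moved to a lower level.

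Counts are given as members, then all tested genes. Difference between labels in TfhA, 0 and 0: size factors by RLE gave 1 gene, no filter 1 member and 23 genes, DESeq2 1 and 23. Difference in Tfh1, 1 and 100: no filter 2 and 168, DESeq2 2 and 281, plain library size 0 members, the compared groups alone 2. Difference in Tfh5, 1 and 380: DESeq2 669 genes, the groups alone 0 and 80. Change of the difference from TfhA to Tfh1, 0 and 28: no filter 61 genes, DESeq2 1 and 62, the groups alone 64 genes. From TfhA to Tfh5, 1 and 140: no filter 2 and 235, DESeq2 4 and 286, plain library size 0 members, the groups alone 0 and 88. From Tfh1 to Tfh5, 0 and 7: no filter 1 and 45, DESeq2 59 genes, plain library size 4, the groups alone 3.

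Tfh1 minus TfhA, Cre-negative label, 0 and 262: no filter 1 member, DESeq2 476 genes, plain library size 401, the groups alone 1 and 566. Cre-positive label, 1 and 302: no filter 3 members, DESeq2 4 and 633, plain library size 3, the groups alone 3. Tfh5 minus TfhA: DESeq2 gave 931 genes against 596 with the Cre-negative label and 1016 against 633 with the Cre-positive label, and plain library size gave 953 with the Cre-negative label. Tfh5 minus Tfh1, Cre-negative label, 65 genes: no filter 232, DESeq2 261, the groups alone 28. Cre-positive label, 206 genes: no filter 314, DESeq2 438, the groups alone 115. The causes were not tested.

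With 1 library left out, the label differences gave 0 to 0 members and 0 to 4 genes in TfhA, 0 to 1 and 51 to 99 in Tfh1, and 1 to 2 and 258 to 387 in Tfh5. Their changes gave 0 to 0 and 18 to 27 (TfhA to Tfh1), 0 to 2 and 81 to 164 (TfhA to Tfh5), and 0 to 0 and 5 to 21 (Tfh1 to Tfh5). Tfh1 minus TfhA gave 0 to 0 and 129 to 202 with the Cre-negative label and 0 to 1 and 170 to 282 with the Cre-positive label. Tfh5 minus TfhA gave 2 to 5 and 360 to 555, and 4 to 6 and 448 to 543. Tfh5 minus Tfh1 gave 3 to 3 and 25 to 94, and 4 to 4 and 145 to 192. The lowest counts of Tfh5 minus TfhA labelled Cre-negative, 2 and 360, came without TfhA replicate 5, and the 0 and 81 of the change from TfhA to Tfh5 without TfhA replicate 1 labelled Cre-positive. Of the 6 libraries behind the Tfh1 label difference, only leaving out replicate 6 labelled Cre-positive kept its member.

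Same-numbered libraries did not deviate together over the tested genes as a whole. Over 18 pairs the correlation of their deviations ran from -0.04 to 0.07, and 0 pairs exceeded 0.1. This correlation can miss a pairing that moves few genes, so it does not settle what the numbers stand for. With the replicate block the members called were as without it in all 9 comparisons within or across treatments, and the genes called moved by over 1.5 times only for the change from Tfh1 to Tfh5, 16 against 7. The block could not be fitted for the label differences within a treatment, since the labels share no number.

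Plain library size moved the median of all genes from -0.09 to -0.64 in Tfh5 minus TfhA labelled Cre-negative, so levels are relative to TMM scaling. Its calls split into 143 higher and 810 lower there, against 372 and 224. Tfh1 minus TfhA split 64 and 337 against 176 and 86 with the Cre-negative label, and 103 and 159 against 185 and 117 with the Cre-positive label. Tfh5 minus Tfh1 labelled Cre-negative split 15 and 34 against 32 and 33. The label difference split 38 and 38 against 60 and 40 in Tfh1, and 151 and 154 against 140 and 240 in Tfh5. Its change split 17 and 9 against 12 and 16 from TfhA to Tfh1, and 80 and 44 against 39 and 101 from TfhA to Tfh5.

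Tnfsf8 and Tnfsf11 held 0 counts in most Tfh1 and Tfh5 libraries, where a group total of 0 allows up to 3 counts, so their folds are bounds or carry wide intervals.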
